A study of Arabidopsis thaliana with 6 samples.

Results

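Small heat shock protein genes were examined in dissected Arabidopsis thaliana seeds. The 10 loci were taken by identifier, out of 32140 loci in the deposited files. They are HSP17.4 (AT3G46230), HSP17.6A (AT5G12030), HSP17.6B (AT2G29500), HSP17.6C (AT1G53540), HSP17.6II (AT5G12020), HSP17.8 (AT1G07400), HSP18.2 (AT5G59720), HSP21 (AT4G27670), HSP22 (AT4G10250) and HSP23.6 (AT4G25200). Each had 1 transcript in the files.

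The study sequenced amplified total RNA in 6 libraries on the SOLiD platform. The kyp group held 2 libraries (numbered 11 and 12) of embryos with 2 to 4 cells from Landsberg erecta (Ler) mothers carrying the kyp-2 allele, pollinated by Columbia (Col-0). The father was labelled wild type for kyp library 12, and the labels of kyp library 11 give the maternal genotype as both kyp-2 and wild type, the father's genotype being unstated there. For the globular library the maternal genotype is given 2 times, as wild type both times. KYP (KRYPTONITE) encodes a histone H3 lysine methyltransferase, and with the mutant allele from the mother alone these embryos would be heterozygous. The globular group was 1 library of globular embryos from a wild-type Ler mother and a Col-0 father, numbered 4. The seed coat group was 1 library (numbered 2) of wild-type Ler seed coat, dissected from seeds holding embryos of 2 to 4 cells. The WT group was 2 libraries (7 and 11) of wild-type Ler by Col-0 embryos of 2 to 4 cells. Part of the suspensor remained with the dissected embryos, and all plants grew under 16 h of light. The labels mention no heat treatment and do not say how many embryos or plants went into a library, so the p-values below measure the spread between libraries, which may be technical.

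The reads on genes were 1448502 (kyp library 11), 4107227 (kyp library 12), 1773582 (globular), 1935906 (seed coat), 2497235 (WT library 7) and 3906313 (WT library 11). Levels are given as CPM, read counts scaled to a common library total, with that total adjusted by TMM, edgeR's correction for library composition. KYP itself averaged 42.3 ± 2.61 CPM in kyp and 59.8 ± 3.93 CPM in WT (SD, n = 2 each), which does not check the genotype, since embryos with a maternal mutant allele can still hold KYP transcript. Of 9 embryo markers, LEC1, L1L, DRN and FUS3 had no read in the seed coat library, whose summed level was 349 CPM, with 326 CPM of it from ATML1, against 540 to 668 CPM in the 5 embryo libraries. L1L was at 0 in both WT libraries as well. The dissected embryos also held seed coat transcripts. The 9 seed coat markers summed to 1104 CPM in the globular library, 1348 CPM in the seed coat library and 2319 to 2935 CPM in the 2-4 cell libraries, where KLU led them. The 8 other seed coat markers summed to 821 CPM in the globular library, 1290 CPM in the seed coat library and 909 to 1423 CPM in the 2-4 cell libraries. A difference in a dissected tissue can come from fewer cells of a type or from less RNA per cell, and these cannot be told apart here.

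Small heat shock proteins are chaperones that carry an alpha-crystallin domain and bind unfolding proteins, holding them for refolding by the HSP70 and HSP101 machines. In plants they form families sorted by compartment. HSP17.4, HSP17.6B, HSP17.6C, HSP17.8 and HSP18.2 belong to cytosolic class I, and HSP17.6A and HSP17.6II to cytosolic class II. HSP23.6 is mitochondrial, HSP21 is in chloroplasts and HSP22 in the endoplasmic reticulum. Heat shock factors switch these genes on in heat-stressed leaves, and several are also made in maturing seeds.

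The 5 class I coding sequences shared 67.5 to 85.0% of aligned positions with each other in RefSeq, the closest pair being HSP17.4 and HSP17.6C. The class II pair shared 86.1% and lie next to each other on chromosome 5, on the same strand, with 0 genes between them. Even so, no stretch of 50 bases of the 10 RefSeq transcripts occurred elsewhere in the genome, so reads of that length without mismatches would have 1 place. HSP17.4 overlaps the opposite-strand genes AT3G46220 by 60 bases and AT3G07365, a long noncoding RNA not used here, by 453 bases. Nothing in the protocol says that libraries kept strand, which makes the reads of HSP17.4 uncertain. AT3G46220 stood at 41.5 and 24.9 CPM in kyp, 28.4 CPM in the globular library, 16.5 CPM in the seed coat library, and 13.2 and 17.3 CPM in WT, an order unlike that of HSP17.4. Covered bases ran from 448 to 467 of the 724 in the transcript of HSP17.4 in the 4 libraries of 2-4 cell embryos.

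Heat shock factors bind inverted repeats of GAA. The 250 bases before each RefSeq (TAIR10.1) transcript start were searched for GAANNTTC and TTCNNGAA (2 repeats) and for GAANNTTCNNGAA and TTCNNGAANNTTC (3 repeats, which contain the shorter ones), and these pairs cover both strands. All 10 genes matched a RefSeq entry. HSP17.4 had 724 bases in RefSeq and in the deposited files. The RefSeq transcripts of the other genes were longer, as for HSP17.6B (1056 against 715 bases) and HSP17.8 (858 against 816). Over all loci with a RefSeq transcript, 32.6% had the same length in both. The windows may therefore not end where the counted transcripts start. A run of 2 repeats was found in 4 of 10 (HSP17.4, HSP17.6A, HSP17.6C and HSP21), against 16.2% of 27560 promoters of the same length. A run of 3 was found in 2 of 10 (HSP17.4 and HSP17.6C), against 0.396%. The promoters of the closest class I pair and of the class II gene with a match are shown 5′ to 3′ on the strand of the gene, with the repeats in capitals. They are shown for their matches. HSP17.6B, without a match, had the largest fitted log2 fold change between kyp and WT below. HSP17.4 and HSP17.6A are on the minus strand of chromosomes 3 and 5, and HSP17.6C is on the plus strand of chromosome 1.
HSP17.4: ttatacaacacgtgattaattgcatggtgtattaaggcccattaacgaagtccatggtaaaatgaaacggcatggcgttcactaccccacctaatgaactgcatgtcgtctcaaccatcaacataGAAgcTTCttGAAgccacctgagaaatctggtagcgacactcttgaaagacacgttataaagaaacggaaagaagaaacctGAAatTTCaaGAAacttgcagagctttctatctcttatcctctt
HSP17.6C: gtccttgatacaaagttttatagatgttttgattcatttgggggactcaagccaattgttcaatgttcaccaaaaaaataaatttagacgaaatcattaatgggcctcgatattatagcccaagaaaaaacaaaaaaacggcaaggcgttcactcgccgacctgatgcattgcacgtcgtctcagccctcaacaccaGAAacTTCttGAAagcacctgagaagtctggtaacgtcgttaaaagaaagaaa
HSP17.6A: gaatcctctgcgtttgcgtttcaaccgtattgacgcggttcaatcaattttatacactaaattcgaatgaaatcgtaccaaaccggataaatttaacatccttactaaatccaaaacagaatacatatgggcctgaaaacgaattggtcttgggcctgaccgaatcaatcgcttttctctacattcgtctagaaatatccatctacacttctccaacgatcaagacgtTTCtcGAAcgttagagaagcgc
The 3-repeat runs start at -125 and -44 in HSP17.4 and at -53 in HSP17.6C, counted from the transcript start, and the 2-repeat run of HSP17.6A starts at -22. HSP21, which had no read in any library, also carries a 2-repeat run, at -100. HSP17.6B, HSP17.6II, HSP17.8, HSP18.2 and HSP23.6 have no such letters in this window and were read in both 2-4 cell groups. HSP22, read in WT alone (1 and 2 reads), has none either. With the transcript starts uncertain, this does not show that their promoters lack such repeats.

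Together the 10 genes took 270 and 548 reads in kyp, 65 in the globular library, 24 in the seed coat library, and 1137 and 1069 in WT. The summed level was 178 and 133 CPM in kyp, 38.5 CPM in the globular library, 10.7 CPM in the seed coat library, and 484 and 299 CPM in WT. From the lowest upward the order was therefore seed coat, globular, kyp and WT, and the libraries of kyp and WT did not overlap. The means were 155 ± 31.9 CPM in kyp and 391 ± 131 CPM in WT (SD, n = 2 each). The WT pair spread more widely than the kyp pair, with WT library 7 the higher.

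**Figure D1:**
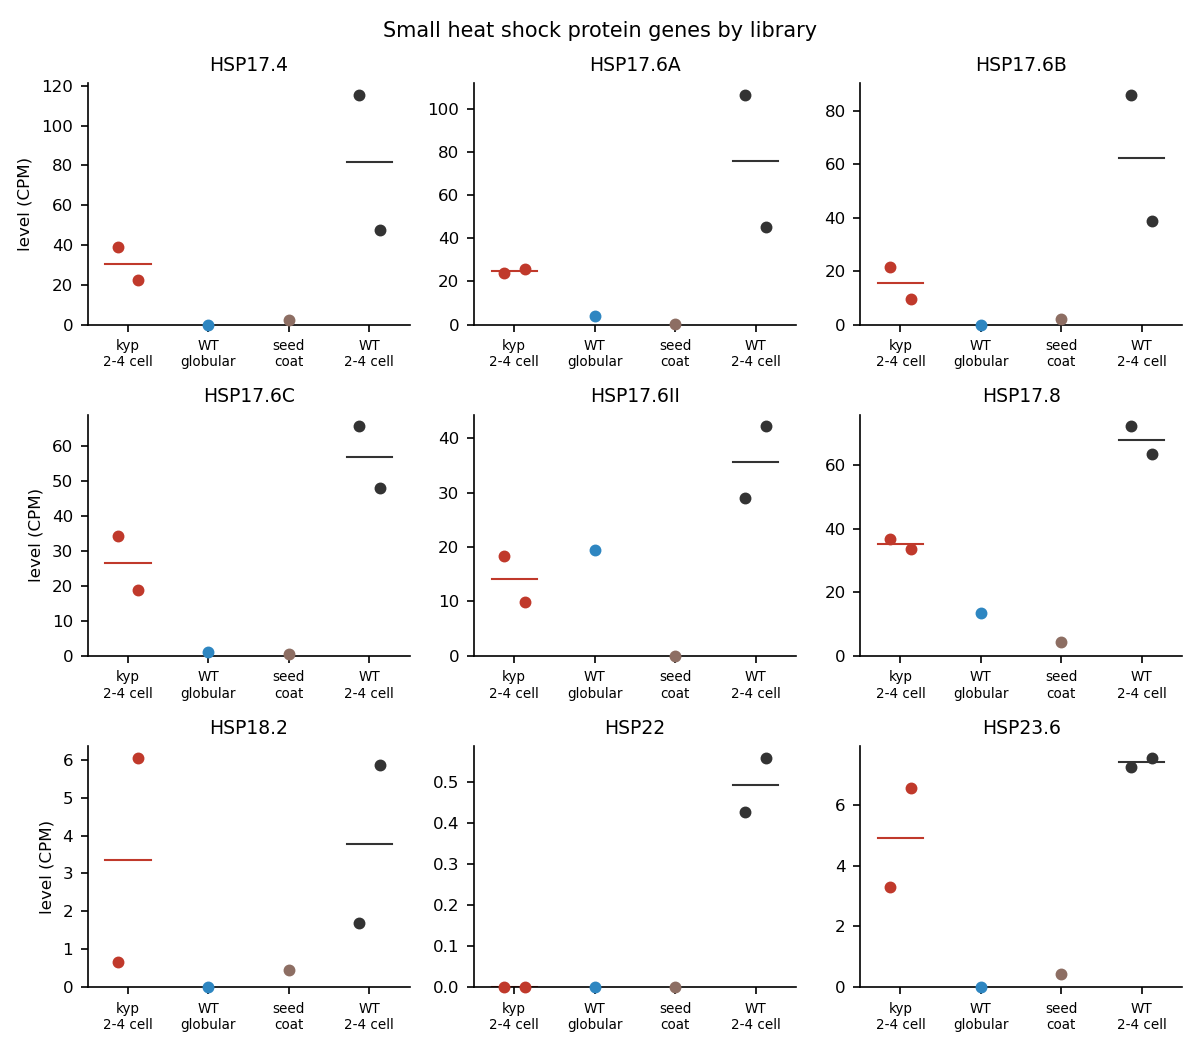
Level of 9 small heat shock protein genes (CPM, vertical axes from 0, each with its own range) in kyp, globular, seed coat and WT 2-4 cell libraries. Points are libraries and bars are means of 2; HSP21, with no read, is not drawn. WT points lie above kyp points except for HSP18.2, and HSP17.6II is the gene whose globular point (19.5 CPM) lies above both kyp points.

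Compared per kilobase of transcript, 6 cytosolic genes held the highest levels. In kyp the mean levels were 43.2 ± 2.80 CPM per kb for HSP17.8, 42.2 ± 16.2 for HSP17.4, 41.0 ± 16.8 for HSP17.6C and 39.1 ± 2.19 for HSP17.6A. The means of HSP17.4 and HSP17.6C lie within their SDs of all of these, whereas HSP17.8 and HSP17.6A differ by more than the SD of either. HSP17.6B was at 21.98 ± 11.9 and HSP17.6II at 20.2 ± 8.58 CPM per kb in kyp (SD, n = 2). In WT HSP17.6A was at 120 ± 68.9 CPM per kb, HSP17.4 at 113 ± 66.3, HSP17.6C at 87.5 ± 19.4, HSP17.6B at 87.3 ± 46.6, HSP17.8 at 83.2 ± 7.74 and HSP17.6II at 50.7 ± 13.4 (SD, n = 2). The SDs of HSP17.6A and HSP17.4 span the first 5 of these. HSP23.6 and HSP18.2 were lower in mean level than these 6, at 5.46 ± 2.55 and 4.79 ± 5.44 CPM per kb in kyp and 8.21 ± 0.243 and 5.40 ± 4.20 CPM per kb in WT.

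Among the 10 listed genes, HSP21, HSP22 and HSP23.6, which encode organelle proteins, were low or unread. HSP23.6 had 5 and 27 reads in kyp, 0 in the globular library, 1 in the seed coat library, and 17 and 27 in WT. HSP22 was read in neither kyp library, nor in the globular or seed coat library, and had 1 and 2 reads in WT. HSP21 had 0 reads in all 6 libraries, and a count of 0 allows up to 3 reads in each. HSP21 and HSP22 did not pass the filter on low counts, and the other 8 of 10 were tested in each comparison.

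The kyp comparison asks whether embryos with a kyp-2 mother differ from wild type at the same stage. Levels of 7 of the 8 tested genes were lower in both kyp libraries than in both WT libraries (16.1% of all loci were), and all 8 had a negative log2 fold change (50.1% of all loci did), but none passed the test over all loci. HSP17.6B had the largest fitted log2 fold change, at 21.75 and 9.69 CPM in kyp against 86.0 and 38.9 CPM in WT (log2 fold change -2.02 ± 0.59 SE, edgeR adjusted p = 0.675). HSP17.6A stood at 23.7 and 25.7 CPM in kyp, against 106 and 45.0 CPM in WT (log2 fold change -1.60 ± 0.51, adjusted p = 0.737). The groups did not overlap in either gene, and the WT pair itself differed by more than 2-fold in both.

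HSP17.4 was at 38.9 and 22.3 CPM in kyp and at 115 and 47.5 CPM in WT (log2 fold change -1.42 ± 0.52, adjusted p = 0.902). HSP17.6II was at 18.45 and 9.93 CPM in kyp and at 29.0 and 42.2 CPM in WT (log2 fold change -1.35 ± 0.59, adjusted p = 0.969). For HSP17.6II it was WT library 11 that stood highest, whereas WT library 7 led for HSP17.4, HSP17.6A, HSP17.6B, HSP17.6C and HSP17.8. HSP17.6C was at 34.3 and 18.9 CPM in kyp and 65.6 and 47.8 CPM in WT (log2 fold change -1.10 ± 0.50, adjusted p = 0.970). HSP17.8 had the closest WT pair of the 6, standing at 36.9 and 33.7 CPM in kyp and 72.4 and 63.5 CPM in WT (log2 fold change -0.94 ± 0.42, adjusted p = 0.970). The low genes HSP18.2 and HSP23.6 had log2 fold changes of -0.10 ± 1.36 and -0.55 ± 1.02. HSP18.2 overlapped between the groups, with 1 and 25 reads in kyp against 4 and 21 in WT, and its sign depended on the setting.

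By edgeR 0 of 8 were called lower, against a background of 0.0125% of the 15996 loci tested. At an unadjusted p under 0.05, 6 of 8 were lower, against 2.19% of all loci, and DESeq2 called 0. The genes were chosen with earlier results of these data known, and they are related genes read in the same libraries. Their counts beside the shares of all loci are therefore a description and not a test of the set. The median log2 fold change was -1.22 over the 8 and -0.0011 over all loci. Without WT library 11 HSP17.6B passed (log2 fold change -2.49, adjusted p = 0.0441), with WT library 7 then standing alone and assumed to vary like the kyp pair. The loci called lower over the whole table then numbered 39, against 2 with all 4 libraries. Without WT library 7 the log2 fold change was -1.33 for HSP17.6B, -0.85 for HSP17.6A and -0.64 for HSP17.4 (adjusted p = 0.884, 0.948 and 0.999).

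The names of kyp library 12 and WT library 11 carry the prefix MC, whose meaning the labels do not give, so kyp and WT were also set side by side within each prefix. Without the prefix, kyp library 11 over WT library 7 gave CPM ratios of 0.223 (HSP17.6A) to 0.637 (HSP17.6II) over the 8 tested genes. With the prefix, kyp library 12 over WT library 11 gave 0.235 (HSP17.6II) to 1.03 (HSP18.2). The 6 abundant genes were below 1 in both pairs, at most 0.637 and 0.571. Ratios below 1 had to follow, since these genes did not overlap between kyp and WT, so the pairs add only the sizes. HSP17.6B was nearly the same in both (0.253 and 0.249), as was HSP17.8 (0.510 and 0.531). HSP17.6II had the highest ratio of the 8 in the first pair and the lowest in the second. With the prefix as a block in the fit, 0 of 8 were called.

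**Figure D2:**
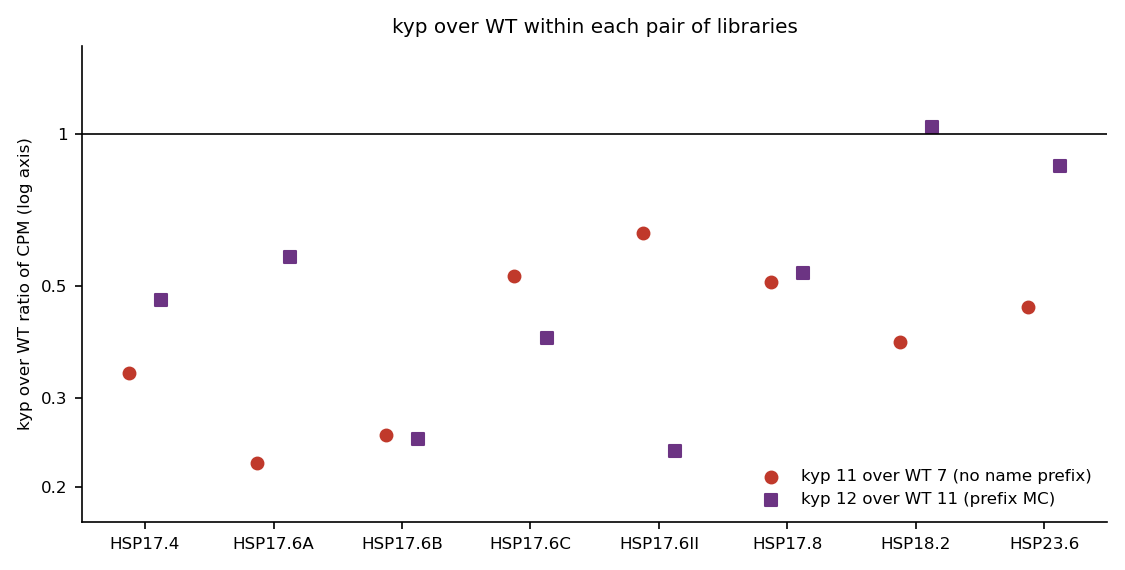
Ratio of CPM, kyp over WT (vertical log axis), for 8 small heat shock protein genes within the pair of libraries without a name prefix (circles) and the pair with the prefix MC (squares). Points below the line at 1 are lower in kyp; of the 16 points, the HSP18.2 square (1.03) lies above it.

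Markers of other cell types and of handling were read beside these genes. The 11 listed touch and wounding genes, such as TCH2 and JAZ1, summed to 1023 and 1019 CPM in kyp, 644 CPM in the globular library, 1383 CPM in the seed coat library, and 1667 and 1769 CPM in WT. Of the 11, CML38 and JAZ5 were at 0 in the globular library and none in the other 5. The 8 endosperm genes summed to 110 and 53.5 CPM in kyp, 31.4 CPM in the globular library, 90.1 CPM in the seed coat library and 54.1 and 50.9 CPM in WT. Of the 8, IKU2 was at 0 in all libraries except WT library 7, ZOU in kyp library 12 and both WT libraries, MINI3 in kyp library 12, FIS2 in WT library 7 and MEA in the globular library. The part of these markers in the levels of the small heat shock proteins was not tested.

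The globular comparison follows the same cross to a later stage. Of the 8 tested genes 4 fell in the globular library relative to WT 2-4 cell embryos, which are HSP17.4, HSP17.6B and HSP17.6C of class I and HSP17.6A of class II. The background was 0.774% of 17706 loci called lower. HSP17.4 was without a read in the globular library, against 271 and 170 reads in WT, so that it was at least 41.9-fold lower (adjusted p = 0.0026). HSP17.6B was likewise without a read, against 202 and 139 in WT, and at least 32.4-fold lower (adjusted p = 0.0070). Both bounds set 3 reads in place of 0 in the globular library. Against WT library 11 alone they came to 26.7-fold and 21.9-fold. The fitted log2 fold changes without WT library 7 were -9.97 and -9.68, in place of -10.7 and -10.3. For HSP17.4, 9 bases of the transcript were covered there although no whole read was counted.

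HSP17.6C had 2 reads in the globular library against 154 and 171 in WT. Scaled by library size that is 0.0216 of the WT level, with an exact 95% counting interval of 0.0026 to 0.0787 (adjusted p = 0.0144). HSP17.6A was at 4.15 CPM in the globular library, against 106 and 45.0 CPM in WT (log2 fold change -4.17 ± 0.88, adjusted p = 0.0262). Its call was lost without WT library 7 (log2 fold change -3.42, adjusted p = 0.0622) and with the reads of all isoforms of each locus summed (adjusted p = 0.0546). The intervals and bounds cover counting error only, since amplified reads without molecular identifiers are not independent molecules.

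The class II neighbour of HSP17.6A did not follow it. HSP17.6II was at 19.5 CPM in the globular library against 29.0 and 42.2 CPM in WT, a log2 fold change of -0.86 ± 0.81 (adjusted p = 0.759). In reads, HSP17.6II had 33 and HSP17.6A 7 in the globular library, whereas HSP17.6A had 250 and 161 and HSP17.6II 68 and 151 in WT. The difference between the changes of these 2 genes was not tested. HSP17.8 was at 13.6 CPM in the globular library against 72.4 and 63.5 CPM in WT (log2 fold change -2.31 ± 0.68, adjusted p = 0.134), and passed with WT and the globular library alone in the fit (adjusted p = 0.0442). HSP18.2 and HSP23.6 were not read in the globular library, being at least 2.37-fold and 4.18-fold lower than WT, and did not pass (adjusted p = 0.636 and 0.412).

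HSP17.6II thus made up 50.8% of the small heat shock protein reads in the globular library (33 of 65, exact 95% interval 38.1 to 63.4%). Its share was 10.4 and 7.48% in kyp and 5.98 and 14.1% in WT, and 0 of 24 reads in the seed coat library, where the interval reaches 14.2%. HSP17.8 supplied 35.4% of the globular reads. With HSP17.6II left out, the summed level was 159 and 123 CPM in kyp, 19.0 CPM in the globular library, 10.7 CPM in the seed coat library and 455 and 257 CPM in WT.

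**Figure D3:**
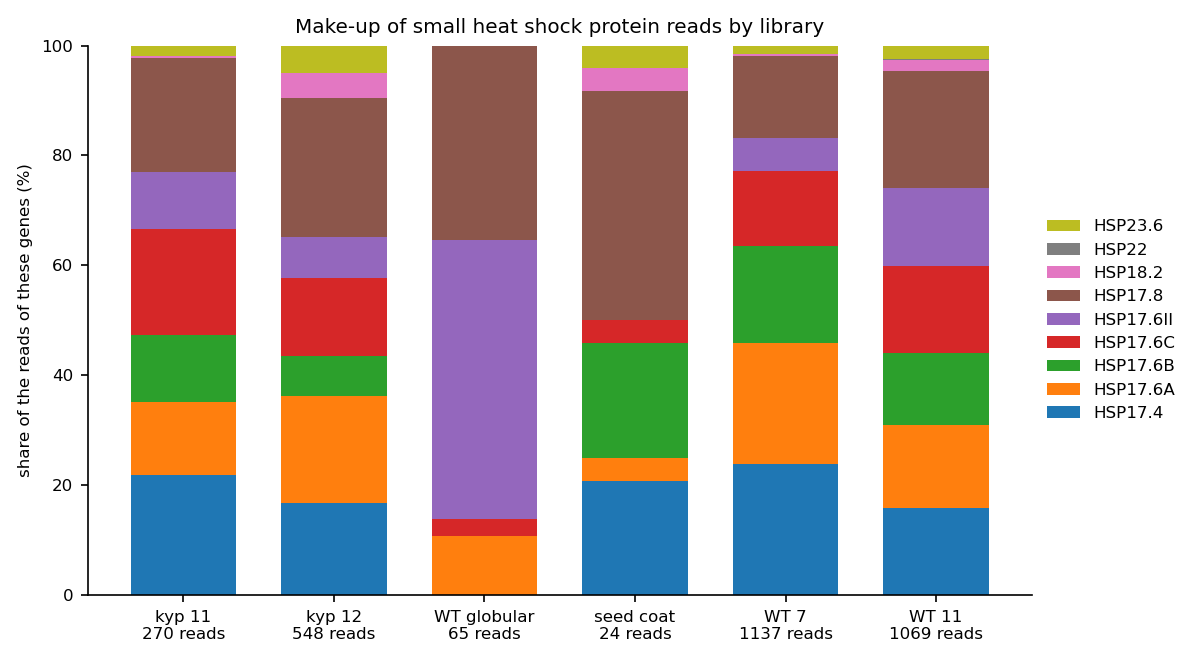
Share of the small heat shock protein reads (%, vertical axis) taken by each gene in each library, with the number of reads under each bar. HSP17.6II and HSP17.8 together take most of the 65 globular reads, while the reads of 2-4 cell embryos are spread over 6 genes.

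The next comparison sets the seed coat library beside embryos of the same seed age, which also held seed coat transcripts. The seed coat was Ler and the embryos were Ler by Col-0, so tissue and cross cannot be told apart. In the seed coat library 6 of the 8 tested genes fell relative to WT 2-4 cell embryos, against a background of 0.627% of 17706 loci called lower. These were HSP17.4, HSP17.6A, HSP17.6B, HSP17.6C, HSP17.6II and HSP17.8. HSP17.6A had 1 read in the seed coat library against 250 and 161 in WT, a ratio of levels of 0.0064 with a counting interval of 0.0002 to 0.0360 (adjusted p = 0.0052). HSP17.6C likewise had 1 read against 154 and 171, a ratio of 0.0081 with an interval of 0.0002 to 0.0456 (adjusted p = 0.0081). HSP17.6II had no read there, against 68 and 151, and was at least 27.6-fold lower (adjusted p = 0.0118). Without WT library 7 the log2 fold change of HSP17.6A was -6.51, in place of -7.25. Both class II genes were thus at or under the floor of 3 reads there, although HSP17.6II was not in the globular library.

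HSP17.4 was at 2.23 CPM in the seed coat library against 115 and 47.5 CPM in WT (log2 fold change -5.15 ± 0.95, adjusted p = 0.0128). Its log2 fold change was -4.38 without WT library 7. HSP17.8, the most read of the 10 in the seed coat library, had 10 of the 24 reads there and stood at 4.46 CPM against 72.4 and 63.5 CPM in WT (log2 fold change -3.91 ± 0.76, adjusted p = 0.0199). HSP17.6B was at 2.23 CPM in the seed coat library against 86.0 and 38.9 CPM in WT (log2 fold change -4.77 ± 1.03, adjusted p = 0.0365). The HSP17.6B call was lost without WT library 7 (log2 fold change -4.09, adjusted p = 0.0721), with total reads in place of TMM (0.0560) and with isoforms summed (0.0763). HSP18.2 and HSP23.6 had 1 read each in the seed coat library and did not pass (adjusted p = 0.916 and 0.687).

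Set against kyp 2-4 cell embryos, where the levels were nearer, fewer genes passed. The globular and seed coat libraries also differ from kyp in the maternal genotype, and the seed coat library in the cross. In the globular library 1 of 8 was called lower than in kyp, against a background of 0.553% of 17706 loci. This was HSP17.4, unread in the globular library against 59 and 92 reads in kyp, hence at least 15.1-fold lower (adjusted p = 0.0141). HSP17.6B (at least 7.28-fold lower, adjusted p = 0.0516) and HSP17.6C (2 reads against 52 and 78, ratio 0.0515 with an interval of 0.0062 to 0.190, adjusted p = 0.0534) lay just past the threshold of 0.05, and several settings brought them under it. On leaving out any 1 of the 2-4 cell libraries, the fitted log2 fold change of HSP17.6B ran from -8.63 to -7.77. That of HSP17.6C ran from -4.79 to -4.41 without kyp library 12, WT library 7 or WT library 11. Such fits leave 1 library in a 2-4 cell group, so they give sizes only. HSP17.6II was higher in the globular library than in both kyp libraries, at 19.5 CPM against 18.45 and 9.93 CPM, with a log2 fold change of 0.49 ± 0.79 (adjusted p = 0.877).

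In the seed coat library 3 of 8 were called lower than in kyp, against a background of 0.576% of 17706 loci. These were HSP17.6C (1 read against 52 and 78, ratio 0.0194, interval 0.0005 to 0.110, adjusted p = 0.0279), HSP17.6A (1 read against 36 and 106, ratio 0.0177, interval 0.0004 to 0.100, adjusted p = 0.0281) and HSP17.6II (0 reads against 28 and 41, at least 9.13-fold lower, adjusted p = 0.0480). HSP17.4, at 2.23 CPM in the seed coat library against 38.9 and 22.3 CPM in kyp, did not pass (log2 fold change -3.73, adjusted p = 0.0963) but did under 6 alternatives (adjusted p = 0.0037 to 0.0425). These were no filter on low counts, the prefix block, DESeq2, and leaving out kyp library 12, WT library 7 or WT library 11. HSP17.8 (log2 fold change -2.97, adjusted p = 0.108) passed with no filter (0.0260) and by DESeq2 (0.0232). With isoforms summed 0 of 8 passed, and with no filter on low counts 5 passed. The HSP17.6II call was also lost with total reads (adjusted p = 0.0632), with only the 2 groups in the fit (0.139) and by DESeq2 (0.0567). The kyp and WT libraries were each used in several of these comparisons, and the globular and seed coat libraries stand alone, so they were assumed to vary like the 2-4 cell pairs.

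Over the whole set, the median log2 fold change of the 8 tested genes was -5.92 in the globular library relative to WT, beside -0.12 over all loci. It was -4.96 in the seed coat library relative to WT, beside 0.00 over all loci. Fitted values of genes without a read depend on the prior count, and with such genes set at their bounds the medians were -3.24 and -4.78.

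Other genes of the heat shock response were read from lists put together for this question. Of 9 further loci of the HSP20 family, 4 were tested. In kyp 0 of the 4 were called relative to WT, with a median log2 fold change of -0.43, and in the globular library 0 of 4 were called (median -1.70). There AT1G59860 (log2 fold change relative to WT -2.22, adjusted p = 0.142) passed under 7 alternatives (adjusted p = 0.0080 to 0.0388) and AT1G54050 (-1.60, adjusted p = 0.166) by DESeq2 (0.0205). In the seed coat library 3 of 4 fell relative to WT, against 0.627% of all loci. The same 3 were called lower relative to kyp, against 0.576% of all loci. Relative to kyp, AT1G59860 (adjusted p = 0.0429) lost its call with total reads (0.0627) and with isoforms summed (0.0987). AT1G54050 stood at 187 and 237 CPM in kyp, 155 CPM in the globular library, 10.7 CPM in the seed coat library, and 556 and 381 CPM in WT (seed coat against WT, log2 fold change -5.44 ± 0.64, adjusted p = 0.0005). AT5G51440 stood at 123 and 75.8 CPM in kyp, 68.1 CPM in the globular library, 2.68 CPM in the seed coat library, and 105 and 133 CPM in WT (log2 fold change -5.45 ± 0.75, adjusted p = 0.0020). Its kyp and WT libraries overlapped. AT1G59860, at 12.5 CPM in the seed coat library against 291 and 103 CPM in WT, had a log2 fold change of -3.97 ± 0.75 (adjusted p = 0.0150). Its log2 fold change was -3.03 without WT library 7.

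Among 24 heat shock factors and regulators, 18 were tested between kyp and WT and 19 in the other comparisons. HSFA2, the heat-induced factor that keeps small heat shock protein genes on after a first heat stress, was at 90.3 and 203 CPM in kyp, 54.5 CPM in the globular library, 24.97 CPM in the seed coat library, and 509 and 324 CPM in WT. The 4 groups ranked as for the summed small heat shock proteins, though within kyp library 12 was the higher for HSFA2 and library 11 for the sum. Relative to WT, HSFA2 fell at the globular stage (log2 fold change -2.93 ± 0.62, adjusted p = 0.0269) and in seed coat (-4.05 ± 0.67, adjusted p = 0.0067). Its log2 fold change in kyp relative to WT was -1.49 ± 0.45 (adjusted p = 0.696), and it passed without kyp library 12 (-2.19, adjusted p = 0.0166) and with no filter on low counts (adjusted p = 0.0454).

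DREB2A, a factor of drought and heat responses, took another order. It was at 183 and 136 CPM in kyp, 27.8 CPM in the globular library, 147 CPM in the seed coat library, and 354 and 412 CPM in WT. DREB2A fell in the globular library relative to WT (log2 fold change -3.78 ± 0.57, adjusted p = 0.0022) and relative to kyp (-2.51 ± 0.54, adjusted p = 0.0334). In the seed coat library its log2 fold change relative to WT was -1.38 ± 0.49 (adjusted p = 0.288). Its level there lay between those of the 2 kyp libraries, whereas the summed small heat shock protein level was lowest there. Of the regulators 0 of 18 were called between kyp and WT (median log2 fold change -0.35). Relative to WT, 2 of 19 fell in the globular library and 1 of 19 in the seed coat library, against 0.774% and 0.627% of all loci. Relative to kyp, 1 of 19 regulators (DREB2A) fell in the globular library and 0 of 19 fell in seed coat, against 0.553% and 0.576%. HSFA2 had a log2 fold change of -2.56 in seed coat relative to kyp (adjusted p = 0.0848), and passed under 6 alternatives (adjusted p = 0.0005 to 0.0264). DREB2A in seed coat relative to WT passed by DESeq2 (adjusted p = 0.0451).

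All 28 chaperones and co-chaperones on the list were tested. In kyp 0 of 28 were called relative to WT, with 24 negative and a median log2 fold change of -0.48. Over all loci 50.1% were negative and the median was -0.0011. In the globular library 1 of 28 fell relative to WT (median -0.58), and in the seed coat library 3 of 28 fell, with 28 negative and a median of -1.43. HSP70 (AT3G12580), a cytosolic chaperone that refolds what small heat shock proteins hold, was at 87.0 and 97.1 CPM in kyp, 44.4 CPM in the globular library, 13.4 CPM in the seed coat library, and 280 and 190 CPM in WT. Relative to WT, HSP70 fell at the globular stage (log2 fold change -2.40 ± 0.55, adjusted p = 0.0411, lost without WT library 7 at 0.0644 and with isoforms summed at 0.0705) and in seed coat (-4.13 ± 0.61, adjusted p = 0.0035). Relative to kyp, 0 of 28 were called at the globular stage. In seed coat 1 of 28 fell relative to kyp, against 0.576% of all loci. This was HSP70 (log2 fold change -2.78 ± 0.58, adjusted p = 0.0356, lost with total reads at 0.0574 and with isoforms summed at 0.0778).

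Hop3, a co-chaperone that links HSP70 and HSP90, fell in the seed coat library to 35.2 CPM, against 254 and 293 CPM in WT (log2 fold change -2.95 ± 0.59, adjusted p = 0.0212). AT3G09440, annotated as an HSP70 family protein, was at 388 and 419 CPM in kyp, 402 CPM in the globular library, 125 CPM in the seed coat library, and 799 and 448 CPM in WT. Its fall in the seed coat library (log2 fold change -2.31 ± 0.52, adjusted p = 0.0451) was lost without WT library 7 (adjusted p = 0.0832), with total reads (0.0909) and with isoforms summed (0.0795). Of 7 further heat-induced genes 6 were tested and 0 were called in any of the 5 comparisons. The most abundant of these were ROF1, an FKBP-type peptidyl-prolyl isomerase, at 357 and 413 CPM in kyp, 316 CPM in the globular library, 167 CPM in the seed coat library, and 580 and 543 CPM in WT, and the mitochondrial chaperonin HSP60, at 245 and 218 CPM in kyp, 399 CPM in the globular library, 95.9 CPM in the seed coat library, and 450 and 302 CPM in WT. The globular level of HSP60 lay inside the WT range, where HSP17.4 and HSP17.6B were unread. In the seed coat library relative to WT the log2 fold change of HSP60 was -1.97 (adjusted p = 0.0874), and it passed under 7 alternatives (adjusted p = 0.0007 to 0.0283). That of ROF1 was -1.75 (adjusted p = 0.108), and it passed under 5 (adjusted p = 0.0005 to 0.0479).

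**Figure D4:**
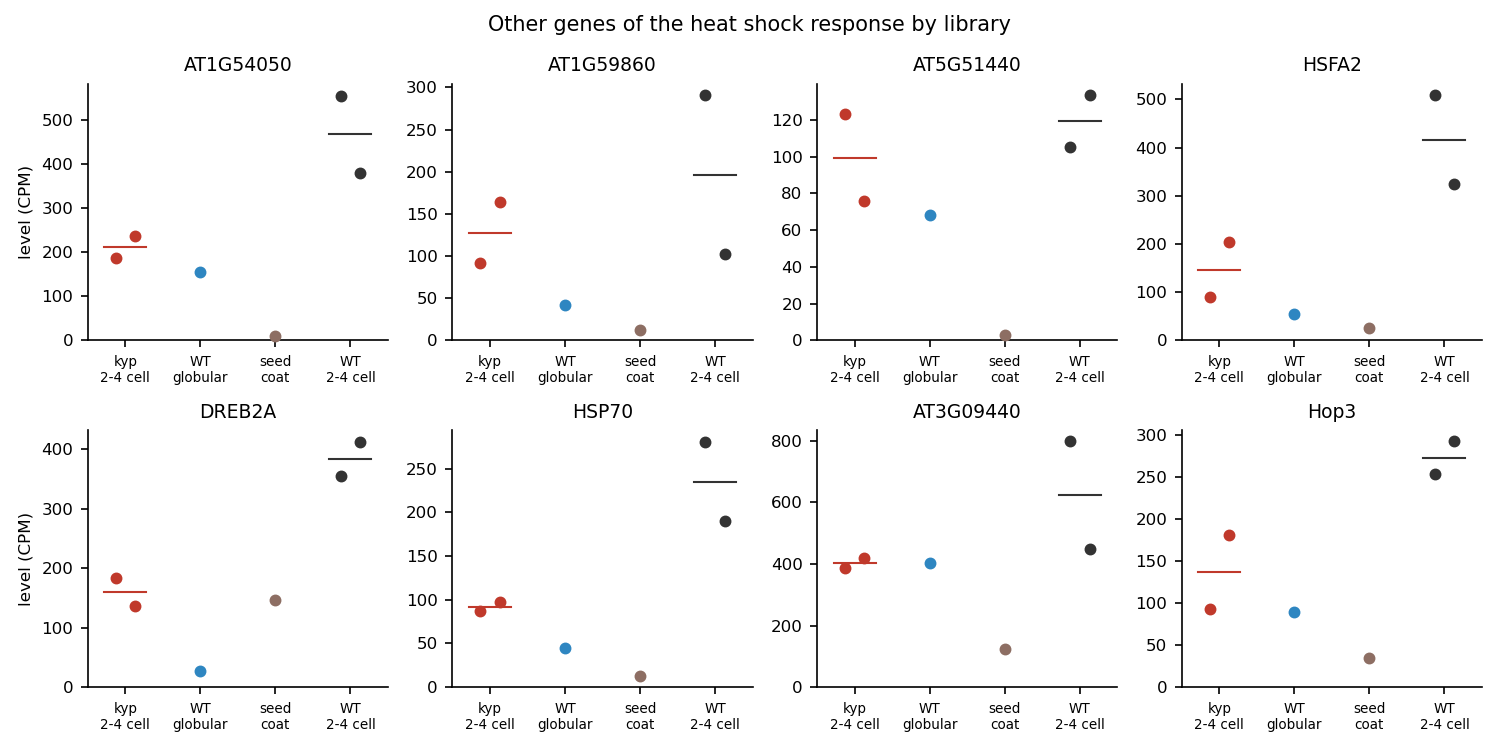
Level (CPM, vertical axes from 0, each with its own range) of 8 genes of the heat shock response in kyp, globular, seed coat and WT 2-4 cell libraries. Points are libraries and bars are means of 2. HSFA2 and HSP70 are lowest in the seed coat library and highest in WT, while DREB2A is lowest in the globular library (27.8 CPM).

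Likeness of profile was measured over the 6 libraries as Pearson's r of log2(CPM + 1) with the mean profile of the 9 small heat shock protein genes that had a read. Within the set, r with the mean of the other genes ran from 0.644 (HSP18.2) and 0.660 (HSP17.6II) to 0.988 (HSP17.6C). Outside it, the 8 closest of 13196 loci with a mean of at least 20 reads were HDA18, a histone deacetylase (r = 0.990), AT2G27285 (0.987), AT5G21970 (0.982), AT1G62110 (0.980), AT2G19380 (0.974), AT1G11540 (0.973), EMB1241, a GrpE-type co-chaperone (0.972), and AT5G05180 (0.972). HDA18 was at 15.2 and 20.1 CPM in kyp, 3.55 CPM in the globular library, 3.57 CPM in the seed coat library, and 31.1 and 28.2 CPM in WT, a narrower range than that of the set. Of the listed heat genes, HSP70 ranked 27 (r = 0.954), BAG6 34 (0.947), HSFA2 39 (0.943), MBF1C 50 (0.936) and AT5G48570 69 (0.931), and the others ranked lower. With 6 libraries in 4 groups these values describe the order of the libraries and carry no p.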

How the data were processed

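Per the labels' protocols, PicoPure-extracted total RNA was amplified linearly with the WT-Ovation Pico system, poly-A tailed for second-strand synthesis, sheared and sequenced on SOLiD. The deposited files give read counts per transcript, with a coverage sum (signal), covered bases and transcript length, per the file headers. In WT library 11 and kyp library 12 deposited values served as estimated counts, since 12.7% and 10.8% of them were not whole; the sources used here do not say how the authors made these. They were rounded to whole numbers, with ties upward. Aligner, genome build and annotation are not given in the sources used here. RefSeq TAIR10.1 served by locus identifier for names, gene structure and sequence.

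Transcripts found in all 6 files (37813) were kept. A locus took its isoform with most reads. Gene totals ranged from 1448502 to 4107227 reads. Tests used edgeR 4.0.16 (quasi-likelihood, TMM, filterByExpr with a minimum count of 10, Benjamini-Hochberg adjustment over all loci, threshold 0.05). The kyp comparison was fitted on 4 libraries. The other 4 comparisons came from a fit of all 6 in 4 groups with 2 residual degrees of freedom. DESeq2 1.42.0 was an alternative. The scripts were tested on simulated data. Floors of 3 reads per library and exact 95% (Clopper-Pearson) intervals cover counting error only.

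Named genes are all 10 members, listed genes called in any comparison (up to 6 per list by p, otherwise the 2 with highest mean CPM) and the 8 loci most alike in profile. Members and lists were chosen with earlier results of these data known.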

Additional observations from a re-analysis of the deposited data

How the results depend on the processing

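No paired analysis was possible because, by replicate number, the kyp and WT libraries share only 11; the name prefix was used as a block instead. Alternatives were DESeq2 size factors, total reads, no low-count filter, isoforms summed, fractions rounded down, the name prefix as a block, other libraries in the fit, DESeq2's Wald test and leaving out each 2-4 cell library. Total reads in place of TMM shift kyp minus WT by 0.15, globular minus kyp by -0.11, seed coat minus WT by 0.32 and seed coat minus kyp by 0.17 (log2). Members called lower numbered 0 to 1 in kyp minus WT on leaving out libraries. In globular minus kyp they numbered 3 with total reads, no filter, the prefix block or only the 2 groups, 2 with fractions rounded down or DESeq2, and 2 to 3 on leaving out libraries. In seed coat minus kyp they numbered 5 with no filter and 0 with isoforms summed. None was called higher in any setting run, and the causes were not tested.

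Sign changes occurred in log2 fold changes that did not pass. In kyp minus WT, HSP18.2 became 0.029 with total reads and ran from -2.44 to 1.05 on leaving out libraries. On leaving out libraries AT1G59860 ran from -1.18 to 0.33 and AT5G51440 from -0.65 to 0.058. In globular minus WT, HSP60 became -0.077 with the prefix block and ran from -0.17 to 0.40 on leaving out libraries. In globular minus kyp, AT3G09440 became 0.017 with DESeq2 size factors and 0.016 with DESeq2, and ran from -0.067 to 0.050 on leaving out libraries. In seed coat minus kyp, DREB2A became 0.060 with total reads and ran from -0.30 to 0.12 on leaving out libraries. Over all loci, those called lower in kyp minus WT numbered 2, against 31 with no filter, 17 with DESeq2 and 4 to 48 on leaving out libraries. Those in globular minus WT numbered 137, against 384 and 260, and those in seed coat minus WT 111, against 334 and 394. In globular minus kyp they numbered 98, against 387, 241, 251 with the prefix block, 363 with only the 2 groups and 63 with isoforms summed. In seed coat minus kyp they numbered 102, against 233, 222, 171 with the prefix block and 50 with isoforms summed. HSP18.2 and HSP23.6 had standard errors of 1.02 to 4.20 on the log2 scale, which limits what these depths show of them.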
